A study of Mus musculus with 2 samples.

Results

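Peaks of open chromatin that consist almost wholly of repeat sequence were described in 2 DNase-seq libraries of mouse frontal cortex. A repeat peak was a peak of chr1-19 in which 80% or more of the bases are soft-masked, that is, printed in lower case as repeats, in the mm10 genome sequence. In replicate 1, 89 of 28969 peaks (0.307%) met this limit, and in replicate 2, 242 of 64912 peaks (0.373%) did. They were set against the peaks with no masked base, 18098 in replicate 1 and 36097 in replicate 2, called unmasked peaks here. The members were chosen by sequence alone, with no value of signal, position, footprints or sharing.

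DNase-seq cuts the DNA of nuclei with DNase I and sequences the cut ends, so that accessible stretches appear as peaks and short protected stretches inside them as footprints. Both libraries belong to 1 group, whole frontal cortex tissue of female B6CASTF1/J mice, an F1 cross of B6 and CAST, at 36 days of age, with no treatment given. They are labelled biological replicates 1 and 2 but carry the same donor label, and the sources used here do not say if the tissue came from different animals. Since the tissue holds many cell types, a site open in fewer cells and a site less open in each cell cannot be told apart.

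Much of a mammalian genome descends from transposable elements, which insert copies of themselves, and from satellites, which are short units repeated head to tail around centromeres. In most somatic tissues these sequences are packed into methylated DNA and heterochromatin, through KRAB zinc finger proteins with their corepressor Trim28, the histone methyltransferase Setdb1 and the DNA methyltransferase Dnmt1. Some copies nevertheless hold binding sites for transcription factors, and simple runs of short units often stand beside promoters. Reads from a sequence with many copies cannot be placed at 1 copy with certainty.

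The sequences of 10 repeat peaks show the kinds that carry the results. They are from GRCm38 (mm10), plus strand, with the bases that lay in a footprint of the named library in capitals. The first pair is 1 satellite peak in both libraries, shown so that its footprints can be compared, and the next is the peak with the highest signal of all repeat peaks.
Satellite peak chr9:3006701-3006940, replicate 1: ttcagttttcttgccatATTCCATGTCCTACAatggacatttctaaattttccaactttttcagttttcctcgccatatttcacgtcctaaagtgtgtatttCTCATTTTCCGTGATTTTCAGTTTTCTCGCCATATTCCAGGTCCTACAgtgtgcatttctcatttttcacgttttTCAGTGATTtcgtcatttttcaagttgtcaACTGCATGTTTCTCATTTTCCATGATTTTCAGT
Satellite peak chr9:3006701-3006940, replicate 2: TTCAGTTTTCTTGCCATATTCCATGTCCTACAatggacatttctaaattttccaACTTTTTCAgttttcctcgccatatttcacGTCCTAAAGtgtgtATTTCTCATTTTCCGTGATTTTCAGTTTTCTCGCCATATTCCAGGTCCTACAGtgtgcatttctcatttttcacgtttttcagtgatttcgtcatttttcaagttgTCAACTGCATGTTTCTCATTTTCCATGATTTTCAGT
Satellite peak chr9:3024361-3024620, replicate 1: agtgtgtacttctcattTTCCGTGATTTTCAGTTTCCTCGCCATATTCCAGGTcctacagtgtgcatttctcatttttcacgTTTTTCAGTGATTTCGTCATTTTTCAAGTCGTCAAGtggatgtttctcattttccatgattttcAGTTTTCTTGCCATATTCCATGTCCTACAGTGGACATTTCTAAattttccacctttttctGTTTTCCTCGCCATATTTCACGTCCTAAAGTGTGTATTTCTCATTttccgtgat
The next 4 lie outside the satellite block. The first is the highest of the largest family of like repeat peaks, the second the highest repeat peak of replicate 1 outside the satellite block, the third a peak in the Snhg14 region, and the fourth a member of the family with the most places in the genome among 8 families searched.
Largest family, chr2:32487221-32487420, replicate 2: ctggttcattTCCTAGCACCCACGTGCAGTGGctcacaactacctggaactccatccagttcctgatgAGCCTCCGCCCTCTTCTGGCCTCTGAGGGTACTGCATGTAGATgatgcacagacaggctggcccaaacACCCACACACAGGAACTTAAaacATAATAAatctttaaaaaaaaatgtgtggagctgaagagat
Pcdh9 intron, chr14:93214861-93215160, replicate 1: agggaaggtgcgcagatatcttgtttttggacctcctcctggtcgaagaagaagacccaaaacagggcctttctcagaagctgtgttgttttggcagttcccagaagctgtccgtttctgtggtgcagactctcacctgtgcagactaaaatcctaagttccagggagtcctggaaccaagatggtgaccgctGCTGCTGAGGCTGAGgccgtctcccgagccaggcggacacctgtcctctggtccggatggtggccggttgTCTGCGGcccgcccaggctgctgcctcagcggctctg
Snhg14 region, chr7:59768741-59768980, replicate 1: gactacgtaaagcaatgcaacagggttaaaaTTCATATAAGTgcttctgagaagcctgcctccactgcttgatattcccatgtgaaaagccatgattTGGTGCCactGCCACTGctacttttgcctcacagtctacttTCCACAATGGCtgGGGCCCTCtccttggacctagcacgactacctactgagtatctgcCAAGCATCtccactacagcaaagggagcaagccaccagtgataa
Depdc1b intron, chr13:108373391-108373600, replicate 2: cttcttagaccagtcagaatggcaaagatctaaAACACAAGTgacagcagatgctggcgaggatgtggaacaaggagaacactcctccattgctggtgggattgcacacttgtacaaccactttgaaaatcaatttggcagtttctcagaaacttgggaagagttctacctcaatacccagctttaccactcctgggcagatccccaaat
The last 3 stand within 500 bp of a transcription start site (TSS) and consist of short units or of runs of few bases.
Prkce promoter, chr17:86167521-86167562, replicate 1: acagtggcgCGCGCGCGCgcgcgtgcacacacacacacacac
Mta3 promoter, chr17:83706141-83706244, replicate 1: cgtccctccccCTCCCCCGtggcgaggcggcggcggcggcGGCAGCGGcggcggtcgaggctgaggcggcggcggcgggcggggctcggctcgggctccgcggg
Pcgf2 promoter, chr11:97699810-97699840, replicate 1: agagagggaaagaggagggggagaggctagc

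Repeat sequence was scarce in peaks. Soft-masked bases make up 33.5% of chr1-19, but 5.43% of the peak bases in replicate 1 and 6.78% in replicate 2. Of all 200-bp tiles of chr1-19, 15.9% have 80% or more masked bases, against 0.307% and 0.373% of the peaks. Of the repeat peaks, 40 in replicate 1 and 100 in replicate 2 were masked over their whole length. At the limit itself, the replicate 1 members nearest to it were 80%, 80.2% and 80.3% masked with signals of 0.954, 0.507 and 0.895, and the peaks just outside it were 79.5%, 79.3% and 79.2% masked with signals of 0.613, 0.648 and 0.778. In replicate 2 those nearest inside were 80%, 80.3% and 80.3% masked with signals of 0.553, 0.592 and 0.379, and those just outside 79.7%, 79.5% and 79.5% masked with signals of 1.14, 1.06 and 0.786.

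Repeat peaks were weaker and narrower than unmasked peaks. The authors' signal, a density per peak normalized for read depth, had a median of 0.942 in repeat peaks and 1.31 in unmasked peaks of replicate 1, and of 0.592 in repeat peaks and 1.14 in unmasked peaks of replicate 2. The median log2 signal was thus lower by 0.47 in replicate 1 and by 0.94 in replicate 2, a mean difference of -0.71 ± 0.33 (SD, n = 2 libraries). Among peaks over 1000 bp from any TSS the mean difference was -0.46, with -0.24 in replicate 1 and -0.68 in replicate 2. With 2 libraries the exact two-sided sign-flip permutation test gives p = 0.5, the smallest it can give, here and for every difference between repeat and unmasked peaks below that has the same sign in both libraries. The signal did not fall steadily from unmasked peaks on. In peaks masked over more than 0 to under 20% of their bases the median was higher than in unmasked peaks in both libraries. Beyond that band it fell in replicate 2. The median there was 1.35 in that band, 1.01 at 20 to under 40%, 0.845 at 40 to under 60%, 0.748 at 60 to under 80% and 0.592 at 80% or more. In replicate 1 the same bands had medians of 1.53, 1.12, 0.942, 0.984 and 0.942, so that above 40% there was no further fall. The mean width was 149 bp in repeat peaks and 198 bp in unmasked peaks of replicate 1, and 127 bp against 199 bp in replicate 2.

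**Figure D1:**
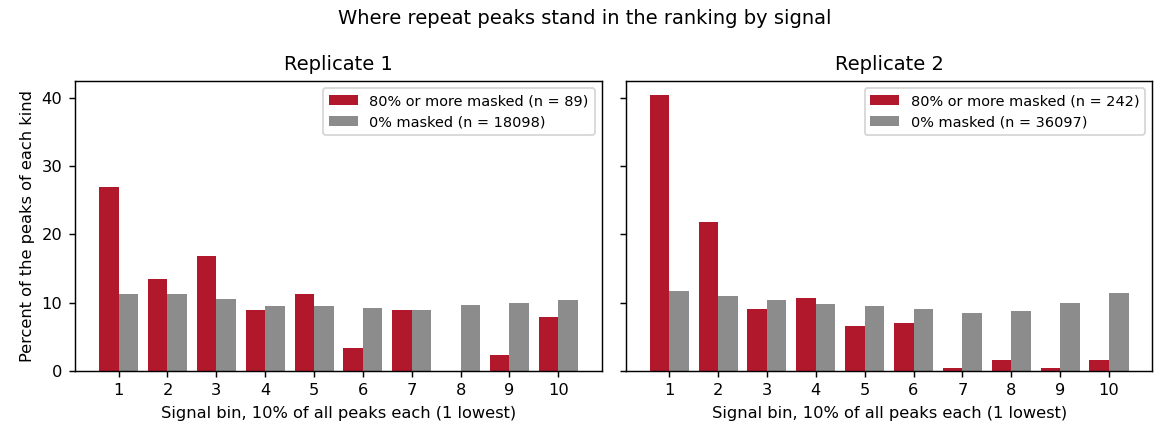
Percent of repeat peaks (red, left bar) and of unmasked peaks (grey, right bar) in each of 10 bins of all peaks of the same library by signal, each with 10% of the peaks, from the lowest (1) to the highest (10), in replicates 1 and 2. In replicate 1, 27% of the repeat peaks and 11.3% of the unmasked peaks stood in the lowest bin, and in replicate 2 40.5% and 11.6%.

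The spread among repeat peaks was wide. In replicate 1 their signals ran from 0.106 to 10.4, with 24 among the 10% of all peaks with the lowest signal and 7 among the 10% with the highest. In replicate 2 they ran from 0.223 to 9.60, with 98 in that lowest bin and 4 in the highest. The repeat peaks at the top came from few places: 4 of the 5 highest in each library lay in a single stretch of chromosome 9, described below.

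GC content and CpG content were lower in repeat peaks. The mean GC content was 50.7% in repeat peaks and 59.7% in unmasked peaks of replicate 1, and 50.6% against 56.2% in replicate 2. The CpG content, as the ratio of observed to expected CpG, had a median of 0.349 in repeat peaks and 0.633 in unmasked peaks of replicate 1, and of 0.141 against 0.403 in replicate 2. Methylated CpG is prone to loss by deamination, and old repeats are known for low ratios. Among peaks over 1000 bp from any TSS the mean GC difference was -2.65 points, against -7.33 points over all peaks.

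A repeat by sequence need not have exact copies today. To measure this, each peak was cut into all its words of 31 bases, and each word was counted on both strands of chr1-19, X and Y. A median of 37.4% of the words of a repeat peak occurred once in the genome in replicate 1 and of 71.7% in replicate 2, while in unmasked peaks the median was 100% in both. The mean was 45.0% in repeat peaks and 98.9% in unmasked peaks of replicate 1, and 60.7% against 99.1% in replicate 2. Masking marks repeats, so this difference follows in part from the rule, and its direction is not a test. In a sample of 200-bp tiles with 80% or more masked bases, the median was 24.1% and the mean 31.3%, lower than in repeat peaks. Repeat peaks held both extremes: 17 of 89 in replicate 1 and 26 of 242 in replicate 2 had no unique word at all, and 26 and 101 had 80% or more unique words.

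The highest repeat peak of each library had few unique words and lay in the chromosome 9 stretch described below. In replicate 1 the 34 repeat peaks with under 20% unique words had a median signal of 1.02 and a highest signal of 10.4, and the 26 with 80% or more had a median of 0.996 and a highest signal of 2.67. In replicate 2 the 52 with under 20% had a median of 0.636 and a highest of 9.60, and the 101 with 80% or more had a median of 0.631 and a highest of 3.91. The medians of both kinds were thus close, and the difference lay in the top values. The chromosome 9 stretch held 9 of the 34 peaks and 8 of the 52 with under 20%. Outside it, the highest repeat peak had 11.5% unique words in replicate 1 (signal 4.28) and 98.2% in replicate 2 (signal 3.91). A typical word of the low-uniqueness peaks occurred 36 times in the genome in replicate 1 and 42.5 times in replicate 2 (median over peaks).

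Members of both libraries that overlapped were merged into 294 loci, of which 37 held a repeat peak in both libraries. Loci were joined into families where BLASTN aligned them at 80% identity or more over 60% or more of the shorter locus. This gave 24 families of 2 or more loci with 200 loci in all, and 94 loci with no like locus. The names of the repeats were not analysed here, so families are described by their sequence and numbered by size.

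The largest family had 107 loci on all 19 chromosomes, with 24 repeat peaks in replicate 1 and 92 in replicate 2. Its loci were short, with a median of 113 bp, a GC content of 50.6% and a CpG ratio of 0.147. Aligned pairs were 83.3% identical over 56 bases (medians), and 87.4% of the words of a typical peak were unique. Its highest member is the chr2 sequence printed above, 667 bp from the TSS of the tentative gene model Gm37169, where its signal was 3.91 in replicate 2 and 2.67 in replicate 1. Its median signal was 0.937 in replicate 1 and 0.684 in replicate 2. Of its 116 peaks, 52 were intronic, 53 intergenic, 7 at promoters and 4 in exons. The E-box letters CAGATG, in the 200 bp around the midpoint, were in 8 of its 24 peaks (33.3%) in replicate 1 and 30 of its 92 (32.6%) in replicate 2, against 14.4% and 19% of all peaks and 17.9% of masked tiles. The family was joined by likeness of sequence, so its peaks share letters by construction. This contrast is thus no test of the E-box.

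Copies of the families in the genome were sought by BLASTN with 1 locus of each of 8 families. Matches also needed an E-value, the number of equally good matches expected at random, of 0.001 or less. A short locus meets this limit only with closer or longer matches than a long one. The counts of places are thus not at a like threshold across families. As a background, peaks covered 0.261% of the bases of chr1-19 in replicate 1 and 0.595% in replicate 2. This is a share of bases, not the share of places that would overlap a peak by 1 bp or more. The families were built from peaks, so the places in a peak can include a family's own loci. Such loci numbered 107 in the largest family, 16 in the second and 12 in the third. The shares below thus do not tell how often such sequence is open. The best connected locus of the largest family, a stretch of 54 bp, aligned at 80% identity or more over 60% of its length to 10904 places of chr1-19, and 113 of these (1.04%) lay in a peak of either library. For the second family, with 16 loci, 32664 places were found and 19 (0.0582%) lay in a peak. The Depdc1b locus of the fifth family, printed above, had 34893 places, of which 4 (0.0115%) lay in a peak. The eighth family had 4 of 429 places (0.932%) and the ninth 9 of 509 (1.77%) in a peak. For the third family, 14 of 149 places (9.40%) like a peak of this chromosome 9 satellite did.

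The third family was a block of satellite DNA at the start of the chromosome 9 sequence. Its 12 loci lay within chr9:3000571-3029836, no more than 29808 bp from the assembly gap that stands for the centromere, and held 11 repeat peaks in replicate 1 and 9 in replicate 2. All peaks of both libraries in this stretch were repeat peaks. The sequence of the stretch repeated itself with a period of 234 bp: 69.7% of its bases equalled the base 234 positions on, against 31.4% at the median of lags up to 1000 bp. The major satellite of mouse pericentromeres has a unit of this length. No word of 31 bases was unique in a typical peak of the block, and its median word had 33 copies in the assembled genome.

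Signals within the block fell into a high and a low class. The peak at chr9:3024361-3024620 reached 10.4 in replicate 1 and 9.60 in replicate 2, the one at chr9:3024021-3024260 had 7.89 and 6.46, and the one at chr9:3006701-3006940 had 7.23 and 7.15. The peak at chr9:3002021-3002220 had 7.21 in replicate 1 but 3.34 in replicate 2. The other 7 peaks in replicate 1 had signals of 0.613 to 2.40 and the other 5 in replicate 2 of 0.398 to 1.13, although they are built of the same unit. Gene models cover the stretch, so that 8 of the 20 peaks count as promoter peaks of Gm10717, Gm10718, Gm10719 or Gm10722, predicted genes of no known function.

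**Figure D2:**
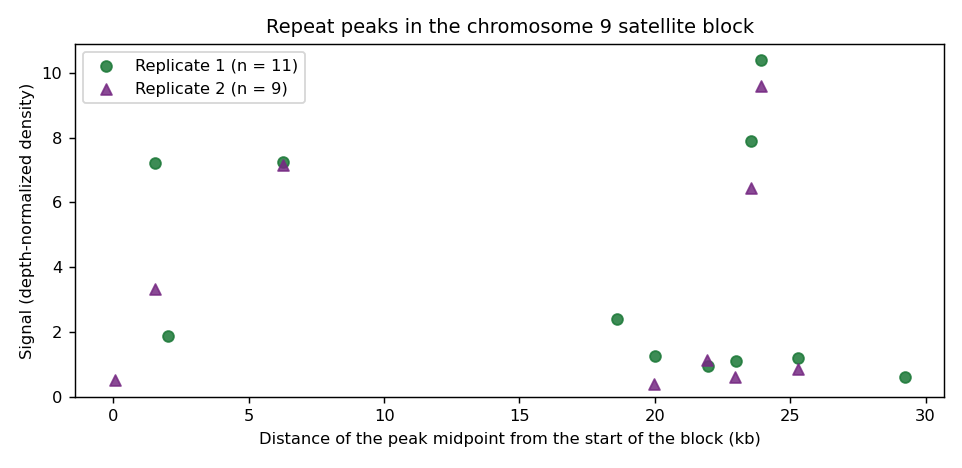
Signal of each repeat peak in the chromosome 9 satellite block against the distance of its midpoint from the start of the block, for replicate 1 (green circles, n = 11) and replicate 2 (purple triangles, n = 9). Peaks with signals above 3 stand at 4 places and the rest lie at 2.40 or lower.

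Footprints were dense in the satellite block, at 19.4 per kb of peak, against 11.1 per kb in the largest family and 4.32 per kb in the second. The peak at chr9:3024021-3024260 held 7 footprints in each library, a number no repeat peak exceeded. A consensus for YY1, a zinc finger factor that can activate or repress, with the letters AANATGGCG, was found in the 200 bp around the midpoint of 17 of the 20 satellite peaks. Of all peaks, 2.39% in replicate 1 and 1.26% in replicate 2 held it. The 20 peaks stand at 12 loci built of the same unit, so they are not separate cases. Inside the peaks themselves there were 13 matches in replicate 1 and 13 in replicate 2, of which 7 and 6 had their midpoint in a footprint, while footprints covered 38.2% of the bases of the satellite peaks in replicate 1 and 40.8% in replicate 2. These matches can be read on the reverse strand, as CGCCATATT, in the satellite sequences above.

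Other repeat peaks stood close together at 4 places. At 4 loci within chr4:143985221-143988460, near Pramef17, a member of the PRAME gene family, all 4 repeat peaks of each library were shared, with signals of 0.589 to 1.61 in replicate 1 and 0.359 to 0.990 in replicate 2, and their median word had 681 copies. At 5 loci within chr7:59711801-59859940, inside Snhg14, the long noncoding host of snoRNA genes in the imprinted region next to Ube3a, there were 4 repeat peaks in replicate 1 (0.330 to 1.37) and 3 in replicate 2 (0.223 to 1.03). A stretch of chromosome 14 at 53832767 to 53936280, near the T cell receptor segments Trav18 and Trav22, held 2 repeat peaks in replicate 1 (1.48 and 1.71) and 3 in replicate 2 (0.592 to 1.37). On chromosome 8, from 19792801 to 20016340, 2 repeat peaks of replicate 1 and 1 of replicate 2 had signals of 0.990 to 1.26, and none was shared.

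The seventh family joined the chromosome 14 pair near Trav22 with 3 other loci, among them the highest repeat peak of replicate 1 outside the satellite block. This peak, in an intron of Pcdh9, a protocadherin of neuronal cell adhesion, reached a signal of 4.28 in replicate 1, against 2.35 in replicate 2, and its median word occurred 392.5 times in the genome. With a median GC content of 62.9% the family was the most GC-rich of the 9 largest. Of its 9 peaks 6 held the GC box letters GGGCGG and 3 the YY1 letters. Of all peaks in replicates 1 and 2, 33.8% and 22.4% held the first and 2.39% and 1.26% the second. The 9 peaks stand at 5 loci alike in sequence, some counted in both libraries, so they are not separate cases. All 4 of its repeat peaks in replicate 1 were shared.

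Repeat peaks were less often at promoters. In replicate 1, 15 of 89 repeat peaks (16.9%, 95% Wilson interval 10.5 to 26) and 9249 of 18098 unmasked peaks (51.1%) had their midpoint within 500 bp of a TSS, and 50.9% of all peaks did. In replicate 2 the shares were 21 of 242 repeat peaks (8.68%, 5.75 to 12.9) and 11565 of 36097 unmasked peaks (32%), with 31% of all peaks. The mean difference was -28.8 ± 7.70 points (SD, n = 2), and within the 10 signal bins it was -17.6 points. Intervals here and below cover counting error only. Introns held 33.7% of repeat peaks and 21% of unmasked peaks in replicate 1, and 40.1% against 32.6% in replicate 2, and intergenic sequence held 46.1% against 22.6% and 47.5% against 29.2%. The median distance to the nearest TSS was 5192 bp in repeat peaks and 457 bp in unmasked peaks of replicate 1, and 8611 bp against 3450 bp in replicate 2.

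**Figure D3:**
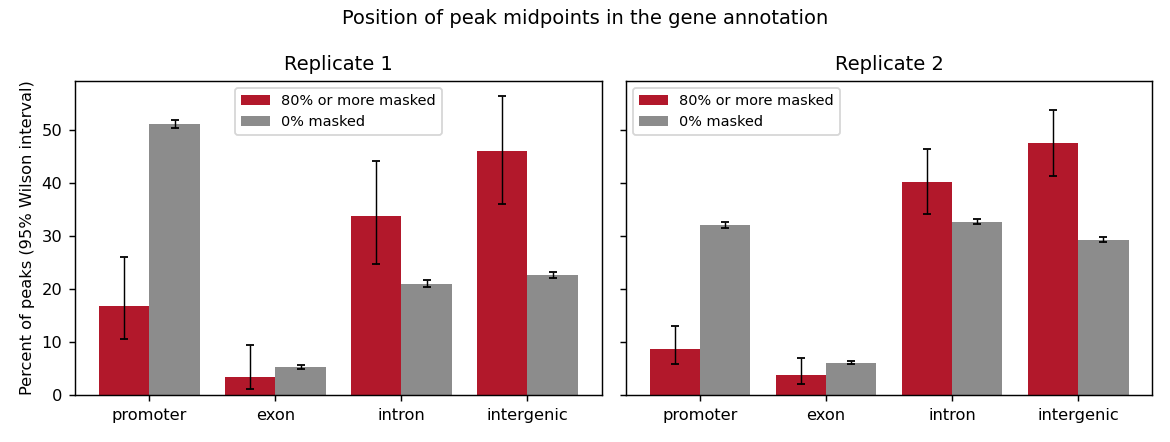
Percent of repeat peaks (red, left bar) and unmasked peaks (grey, right bar) whose midpoint lies within 500 bp of a TSS (promoter), in an exon, in an intron or between genes, with 95% Wilson intervals. Promoters held 16.9% of repeat peaks and 51.1% of unmasked peaks in replicate 1, and 8.68% and 32% in replicate 2.

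Repeat peaks were also more often near gaps of the assembly. Within 100 kb of a gap of 10 kb or more lay 19 of 89 repeat peaks (21.3%) and 203 of 18098 unmasked peaks (1.12%) of replicate 1, and 17 of 242 (7.02%) against 308 of 36097 (0.853%) in replicate 2. Chromosome 9 had 13 repeat peaks in replicate 1 and 27 in replicate 2, of which 2 and 18 lay outside the satellite block, and chromosome 19 had 0 of 911 peaks in replicate 1 and 4 of 1987 in replicate 2. No repeat peak overlapped a RefSeq small RNA or an exon of a GENCODE snoRNA, snRNA, rRNA or misc_RNA gene in either library. The RefSeq small RNAs were overlapped by 0.863% of all peaks in replicate 1 and 0.501% in replicate 2, and the exons by 29 of 28969 peaks and 53 of 64912 peaks.

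Shared repeat peaks at promoters of protein-coding genes outside the satellite block named 7 genes at 6 peaks, each given by the signal of the repeat peak and of its partner. Pcgf2, a Polycomb group protein, had a repeat peak of 1.23 in replicate 1 and a partner of 2.36 in replicate 2. At Prkce, protein kinase C epsilon, the values were 1.24 in replicate 1 and 1.97 in replicate 2, and at the peak shared by Tmem198b, a transmembrane protein gene, and Dnajc14, a J-domain co-chaperone, 0.825 and 1.62. For Mta3, a subunit of the NuRD chromatin remodelling complex, they were 0.754 and 1.34. L3mbtl3, a reader of methylated histones, had 1.11 in replicate 1 and 1.10 in replicate 2. Cntnap4, a neuronal cell surface protein related to neurexins, had 0.942 in replicate 1 and 1.25 in replicate 2.

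These promoter peaks were short, at 31 bp for Pcgf2, 42 bp for Prkce, 56 bp for Tmem198b and Dnajc14, 60 bp for L3mbtl3, 104 bp for Mta3 and 120 bp for Cntnap4. Exact tandem repeats of units up to 6 bases covered 25% or more of 6 of the 89 repeat peaks in replicate 1 and of 13 of the 242 in replicate 2, against 4 of 18098 and 1 of 36097 unmasked peaks. Since repeat peaks were chosen by sequence, this contrast follows in part from the rule. Of the repeat peaks with such runs, 5 of 6 in replicate 1 and 2 of 13 in replicate 2 stood at promoters, against 50.9% and 31% of all peaks. The share was thus above that of all peaks in replicate 1 and below it in replicate 2. The fourth family had 9 loci and a median of 56.7% of peak bases in such runs. Pooled over both libraries, 5 of its 9 peaks stood at promoters, too few to set apart from these shares. The promoters were those of Prkce, L3mbtl3, Mmp16, a membrane-bound matrix metalloproteinase, Mamstr, a coactivator of MEF2 factors, and Pde4d, a cyclic AMP phosphodiesterase. The peak at Mmp16 had a signal of 0.954 in replicate 1, 0 footprints and no partner, and its median word occurred 1.11e+06 times in the genome.

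The share of peaks with a footprint was lower in repeat peaks, but not at like signal. A footprint was counted where its midpoint lay in the peak. In replicate 1, 63 of 89 repeat peaks (70.8%, 60.6 to 79.2) and 14605 of 18098 unmasked peaks (80.7%) held at least 1, and 83.3% of all peaks did. In replicate 2, 145 of 242 repeat peaks (59.9%, 53.6 to 65.9) and 29026 of 36097 unmasked peaks (80.4%) did, with 83.2% of all peaks. The mean difference was -15.2 ± 7.48 points (SD, n = 2). Compared within the signal bins and averaged over the repeat peaks, it was 2.47 points in replicate 1 and -0.975 points in replicate 2, a mean of 0.746 points. In the lowest bin of replicate 2, for instance, 35.7% of 98 repeat peaks and 41.5% of the unmasked peaks held a footprint, and in the highest bin all 4 repeat peaks and 99.7% of the unmasked peaks did.

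The number of footprints per kb of peak was 11.2 in repeat peaks and 11.7 in unmasked peaks of replicate 1, and 8.95 against 11.9 in replicate 2. Without the satellite block the mean difference was -2.65 per kb, against -1.73 with it. At like signal, compared within the signal bins, the density was higher in repeat peaks, by 2.17 per kb in replicate 1 and 0.626 per kb in replicate 2. Footprints covered 16.1% of the bases of repeat peaks and 14.8% of those of unmasked peaks in replicate 1, and 11.9% against 15% in replicate 2. Over all peaks, masked bases made up 5.40% of the footprint bases and 5.43% of the peak bases in replicate 1, and 6.66% and 6.78% in replicate 2, so footprints fell on masked and unmasked bases about in proportion.

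**Figure D4:**
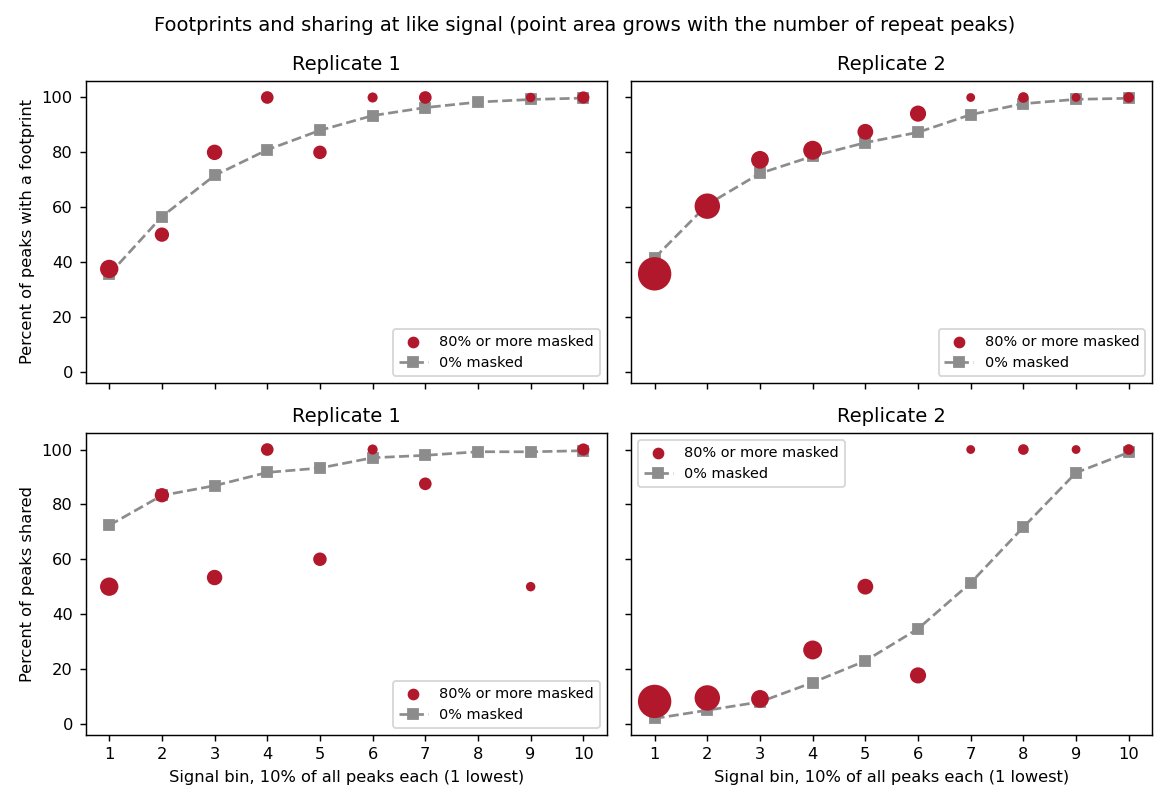
Percent of repeat peaks (red circles, area growing with their number) and unmasked peaks (grey squares) that hold a footprint (upper row) or overlap a peak of the other library (lower row), by signal bin (10% of all peaks each), in replicates 1 and 2. In the upper row both kinds are higher at higher signal, and bins with no repeat peak have no circle.

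Consensus matches in the 200 bp around peak midpoints also differed. CTCF, the insulator protein, had a match in 1 of 89 repeat peaks (1.12%) and 1406 of 18098 unmasked peaks (7.77%) of replicate 1, and in 4 of 242 (1.65%) against 2102 of 36097 (5.82%) in replicate 2. Among all 200-bp tiles it was in 0.0244% of those with 80% or more masked bases. The GC box letters GGGCGG, bound by SP factors, were in 13.5% of repeat peaks and 34.2% of unmasked peaks of replicate 1, and in 9.50% against 23.1% in replicate 2. The YY1 letters were in 11.2% of repeat peaks and 2.38% of unmasked peaks in replicate 1 and in 4.55% against 1.32% in replicate 2, with 0.906% of masked tiles and 0.221% of unmasked tiles. Of the 21 repeat peaks with these letters, 17 lay in the satellite block. Outside it the letters were in 1 of 78 repeat peaks (1.28%) in replicate 1 and 3 of 233 (1.29%) in replicate 2. The share in replicate 2 was about that of unmasked peaks (1.32%), and the share in replicate 1 rests on 1 peak. The TATA box letters TATAAA were in 4.49% and 3.50% in replicate 1 and in 12.4% and 4.78% in replicate 2, against 19.5% of masked tiles. Where a CTCF match lay in a repeat peak, its midpoint was in a footprint at 1 of 1 match in replicate 1 and 3 of 4 in replicate 2, and in unmasked peaks at 86.3% and 92.9% of matches. For the E-box letters CAGATG it was 1 of 10 and 7 of 63, against 20.8% and 24.5% in unmasked peaks. The GC box letters had 3 of 12 and 4 of 19, against 33.0% and 37.5%. The AP-1 letters TGANTCA had 2 of 4 and 1 of 20, against 9.77% and 13.85%. The YY1 letters had 8 of 15 and 7 of 16, against 35.4% and 44.5%.

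Sharing between the libraries was lower in repeat peaks. A peak was shared where it overlapped a peak of the other library by 1 bp or more. In replicate 1, 62 of 89 repeat peaks (69.7%, 59.5 to 78.2) and 16560 of 18098 unmasked peaks (91.5%) were shared, and 92.4% of all peaks. In replicate 2, which has more peaks, 43 of 242 repeat peaks (17.8%, 13.5 to 23.1) and 14268 of 36097 unmasked peaks (39.5%) were shared, and 40.6% of all peaks. The difference was -21.8 points in each library. A shared pair counts in both libraries, so these are not 2 independent values, and their closeness is no measure of spread. With replicate 2 cut by signal to the length of the replicate 1 list, the difference was -44.5 points in replicate 1 and -15.3 in replicate 2. At like signal the difference was -16.5 points in replicate 1 and 6.19 points in replicate 2, so that the direction in replicate 2 turned. The partner was itself a repeat peak at 37 of the 62 shared repeat peaks of replicate 1 and at 37 of the 43 of replicate 2. A further 10 repeat peaks of replicate 1 and 48 of replicate 2 had a partner only in the longer peak list of the other library, and 17 and 151 had none in either list.

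Sharing also varied with copy number among the repeat peaks of replicate 2. There 26 of 52 with under 20% unique words (50%, 36.9 to 63.1) were shared, against 6 of 81 with 20 to under 80% (7.41%, 3.44 to 15.2) and 11 of 101 with 80% or more (10.9%, 6.19 to 18.5). In replicate 1 the shares were 23 of 34 (67.6%), 18 of 26 (69.2%) and 21 of 26 (80.8%), with intervals that overlap. The highest repeat peaks without a partner in replicate 1 were satellite peaks of 2.40 and 1.88, and in replicate 2 they were peaks of 1.42 and 1.38 with 95.4% and 98.9% unique words, both with a partner in the longer list of replicate 1.

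Shared repeat peaks also differed from shared unmasked peaks in the ratio of their signals between the libraries. Over the 62 shared repeat peaks of replicate 1 the median log2 signal of replicate 2 over replicate 1 was -0.03, with quartiles of -0.61 and 0.55, and 30 of 62 were higher in replicate 2. Over the 16560 shared unmasked peaks it was 0.69, with quartiles of 0.46 and 0.91, and 16021 (96.7%) were higher in replicate 2. The difference of the medians was -0.72, which has no test since it takes both libraries to give 1 value.

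This ratio followed the share of unique words. Of the 23 shared repeat peaks with under 20% unique words, 3 were higher in replicate 2, with a median of -0.71. Of the 18 with 20 to under 80%, 7 were higher in replicate 2, with a median of -0.10. Of the 21 with 80% or more, 20 were higher in replicate 2, with a median of 0.56, near the value of unmasked peaks. The 8 shared satellite peaks had ratios from -1.66 to 0.26, and without them the difference from unmasked peaks was -0.58. The sources used here do not say how reads with several matches were treated in each library, and the part of that step in the ratio was not tested.

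**Figure D5:**
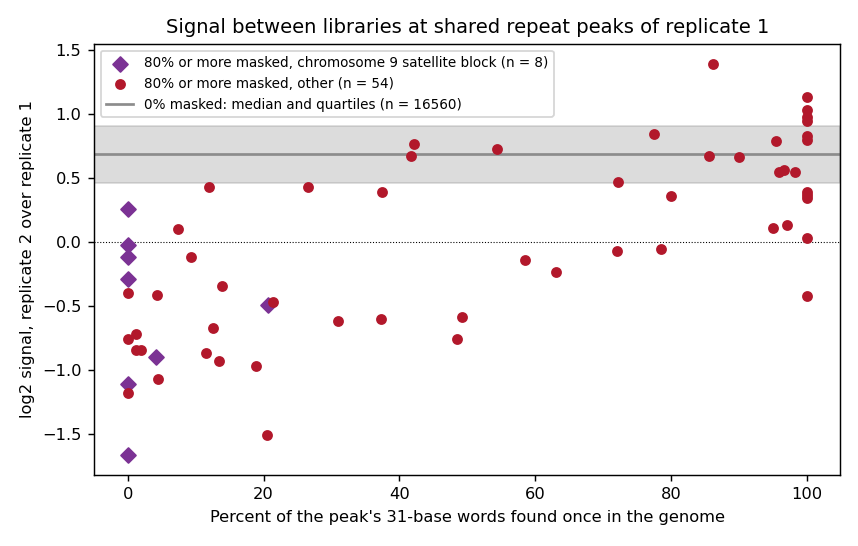
Log2 ratio of the signal in replicate 2 to that in replicate 1 against the percent of unique 31-base words, for the 62 shared repeat peaks of replicate 1, with the satellite block as purple diamonds (n = 8), and the median and quartiles of 16560 shared unmasked peaks as a grey line and band. Peaks with under 20% unique words lie mostly below 0 and those with 80% or more mostly in or near the band.

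Genes that silence repeats had promoter peaks with little masked sequence, as had most peaks. Of all peaks, 62.5% in replicate 1 and 55.6% in replicate 2 had no masked base. A further 29.4% and 33.6% were masked over more than 0 to under 20% of their bases. Of 20 such genes, 17 lie on chr1-19, and 16 of these had a promoter peak in both libraries, Trim28, Setdb1 and Dnmt1 among them, while 10677 of 20780 protein-coding genes of chr1-19 (51.4%) did. The exception was Dnmt3a, a DNA methyltransferase that sets new methylation. The highest masked share of any of these promoter peaks was 24.1%. No gene of the lists of cell type markers had a repeat peak at its promoter, or in its body and 10 kb to each side. Only 15 repeat peaks of replicate 1 and 21 of replicate 2 stood at any promoter, so absence from short lists says little. Promoter peaks in both libraries stood at 4 of 5 general neuronal, 3 of 7 excitatory neuron, 4 of 6 astrocyte and 2 of 5 oligodendrocyte lineage genes. They stood at 0 of 6 inhibitory neuron, 0 of 5 microglia, 0 of 4 vascular and 0 of 5 genes of other tissues. Beside the 51.4% of all protein-coding genes, lists this short do not tell genes of the tissue from others and are no check of it.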

How the data were processed

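DNase-seq peaks, footprints and cleavage rates of 2 frontal cortex libraries were analysed, on the build mm10, per the labels. Per the text deposited with the files, each file was made from that library's own filtered alignments, with no pooling. For the aligner, the callers, their thresholds and the treatment of reads with several matches, nothing was given in the sources used here. The deposited signal is the authors' density per peak, normalized for read depth. Its values were whole multiples of 0.0118 in replicate 1 and 0.00971 in replicate 2, within 0.1 steps, but the depth of the libraries is unknown. The authors' cleavage table holds a p-value column, an FDR listed up to 0.05. It gave the masked share of accessible bases, 5.81% in replicate 1 and 7.35% in replicate 2 at an FDR of 0.001 or less. The authors' footprint score is 0.01 throughout and ranks nothing.

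The peak list with fewer rows was used, on chr1-19, and the second list is named the longer list here. Masking was read from the lower-case letters of the RefSeq FASTA of GRCm38, with a masking method that the sources used here do not give. Positions came from GENCODE M21. Words of 31 bases were counted over chr1-19, X and Y. Motifs were 21 consensus sequences, matched exactly on both strands in 200 bp around peak midpoints and in 200-bp tiles, without removing overlaps between motifs. Families came from BLASTN (BLAST 2.17.0) with an E-value of 0.001 or less and single linkage. Scripts used Python 3.11.15, numpy 2.4.6, pandas 2.3.3 and statsmodels 0.14.6, and were tested on simulated data with known answers. Each value is a description per library, shares have 95% Wilson intervals, and differences were set against an exact sign-flip permutation over the libraries. With 2 libraries its p-value shows only whether both differences have the same sign, and it does not measure their spread. No test across genes was run.

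The members, lists and rules were chosen with earlier results of these data known. Named members were the 5 with the highest signal and the 3 with the most footprints per library, the 3 nearest to each side of the limit, the highest member of each of the 5 largest families, genes with a shared member at their promoter, the 5 highest members per library without a partner, and any listed marker gene with a member at its promoter. Members that stand close together were named as places after their values were seen. Alternatives changed the masked limit, the list, the comparison peaks, distances and overlaps.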

Additional observations from a re-analysis of the deposited data

How the results depend on the processing

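The direction of the differences in signal, promoter share, width, GC content, sharing and signal ratio held under every alternative run, as means over the libraries. So did that in unique words, which follows in part from the rule. The directions in footprints did not hold. Among the 50% of peaks with the highest signal, the share with a footprint was higher in repeat peaks by 1.46 points and the footprints per kb by 1.02, with opposite signs in the libraries for the second measure. Compared within the 10 signal bins, they were 0.746 points and 1.40 per kb higher. The sharing difference was -5.18 points with the same bins, with opposite signs in the libraries, and the mean width over 1000 bp from any TSS differed by 1.79 bp in replicate 1 and -47.8 bp in replicate 2. The cause was not tested. The number of repeat peaks per library, 165.5 on average, was 449.5 at a limit of 60%, 105.5 at 90% and 70.0 at 100%, 656 in the longer list and 23.5 among the stronger 50% of peaks, and it ran from 89 to 242 with either library left out. The ratio difference of -0.72 ran from -1.33 at a limit of 100% to -0.34 at 60%. Alternatives added after the data were seen compared within 5 width classes, which left differences of -3.97 points in footprint share and -12.0 points in sharing, or left out the satellite block. No paired analysis was possible because both libraries belong to 1 group, so no samples pair between groups; differences were taken within each library. The depth is unknown, how reads with several matches were placed is not stated, and 89 and 242 peaks give wide intervals.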
